A study of Mus musculus with 10 samples.

Results

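Ribosome biogenesis factors are the nucleolar and nuclear proteins that transcribe, modify, cut and fold ribosomal RNA and load ribosomal proteins onto it. A list of 48 of these genes was followed in sorted tumour epithelium, out of 51707 genes with a name in the data and 17495 genes with enough reads to be tested. The rule that picks the members uses gene names and no measured value, although the list was drawn up with earlier results of these data known. All 48 were among the genes tested, with between 150.01 and 50437 estimated reads per gene in single libraries.

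The epithelium came from mouse pancreatic ductal adenocarcinoma (PDAC) that grew after T6-LOH organoids were transplanted orthotopically with added pancreatic stellate cells (PSCs), fibroblast-like cells of that organ. T6-LOH organoids are tumour epithelium grown in culture as small hollow structures. In the Egfr KO PSC group (5 libraries) the co-transplanted stellate cells were PSC4 EGFR KO B4, a knockout of the epidermal growth factor receptor read here as 1 clone. In the Egfr WT PSC group (5 libraries) they were PSC4 ROSA (egfr), a Rosa control line of the same stellate cells. Both groups share the organoid line and differ, per the labels, in the stellate cells. The series title names NSG mice as hosts, which lack lymphocytes but keep macrophages and granulocytes, and the strain label reads C57BL/6J. The labels give no age for the hosts. Epithelial cells were isolated by flow sorting. No label ties a library to its own animal, so the p-values describe variation among libraries, which may be partly technical.

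Ribosome assembly starts in the nucleolus, where RNA polymerase I transcribes a long precursor that holds the 18S, 5.8S and 28S rRNAs. Small nucleolar ribonucleoproteins (snoRNPs) methylate and pseudouridylate the precursor, the small-subunit (SSU) processome folds and cleaves its 5′ part into the 40S subunit, and a separate set of factors builds the 60S subunit from the rest. MYC is known to raise the transcription of many of these genes, and stalled assembly is known to activate p53 through free ribosomal proteins that bind MDM2.

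The hexamer CACGTG, the canonical E-box that MYC and other basic helix-loop-helix proteins bind, was searched in the promoters of the members to show what the genes share in sequence. RefSeq promoters (GRCm38.p6, from 250 bases before to 50 bases after the annotated start) matched 43 of the 48 members by symbol, with 46 promoters in all. The motif reads the same on both strands. It lay in 10 of the 46 member promoters (21.7%), against 2349 of all 32851 promoters in the table (7.15%). Median GC content was 59.3% in the member promoters and 52.7% over the whole table. A match is a run of letters and not a bound site. The 10 windows below are printed with the hexamer in capitals. Each runs 5′ to 3′ on the gene's strand, and 3 of them end early at the edge of the table's window.
Imp4: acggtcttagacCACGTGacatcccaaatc (chr1:34439696-34439725, plus strand)
Ltv1: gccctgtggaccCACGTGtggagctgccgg (chr10:13193092-13193121, minus strand)
Mybbp1a: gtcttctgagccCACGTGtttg (chr11:72441355-72441376, plus strand)
Nop2: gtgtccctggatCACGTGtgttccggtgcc (chr6:125131811-125131840, plus strand)
Pes1: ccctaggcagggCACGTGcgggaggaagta (chr11:3963965-3963994, plus strand)
Pno1: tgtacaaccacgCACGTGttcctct (chr11:17211540-17211564, minus strand)
Tsr1: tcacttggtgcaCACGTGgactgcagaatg (chr11:74898092-74898121, plus strand)
Utp20: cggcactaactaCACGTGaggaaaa (chr10:88826765-88826789, minus strand)
Utp4: tgcgcaagcgcgCACGTGgggccggggcgg (chr8:106893643-106893672, plus strand)
Wdr43: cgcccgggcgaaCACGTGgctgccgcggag (chr17:71616220-71616249, plus strand)
In Imp4 and Nop2 the hexamer stood upstream of the annotated start, 121 and 60 bases before it in the order named (positions -121 and -60). In the other 8 it lay between 3 and 41 bases past the start. These 10 genes belong to the SSU processome (Imp4, Utp4, Utp20, Wdr43), late 40S assembly (Ltv1, Pno1, Tsr1), the scaffold and regulators (Mybbp1a), the PeBoW complex (Pes1) and 60S assembly (Nop2).

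Estimated reads were summed over the transcripts of each gene. Levels within one gene are given below as TMM-normalised CPM, reads scaled to library size, and levels of different genes are compared only as TPM, a unit that takes transcript length into account. Totals lay between 39534055 and 53816086 reads in named genes per library, and the lowest total belonged to Egfr KO PSC replicate 3. Libraries are called KO 1 to KO 5 and WT 1 to WT 5 from here on, and the numbers only name them. Each fold change is Egfr KO PSC over Egfr WT PSC from edgeR's quasi-likelihood test, with its standard error (SE) and a Benjamini-Hochberg adjusted p over all 17495 genes.

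No ribosome biogenesis factor differed between the groups by this test. The background was equally empty: 0 of the 17495 genes (0%) passed an adjusted p of 0.05, and the members' adjusted p lay between 0.501 and 0.997. DESeq2 called 127 genes (0.726%) and none of the 48. At an unadjusted edgeR p under 0.05 there were 1426 genes (8.15%), of which 621 were higher (3.55%) and 805 lower (4.6%). The members gave 2 at that level, Ftsj3 and Nhp2, both higher, which is 4.17% of the 48. In 1 member, Ftsj3, every Egfr KO PSC library lay above every Egfr WT PSC library (2.08% of members), and such a gap was found for 266 of all tested genes (1.52%), of which 136 were higher (0.777%) and 130 lower (0.743%). Leaving out 1 library moved these small counts: 1 member had an unadjusted p under 0.05 without WT 2, WT 3 or WT 4, and 3 without KO 4. The share of all genes at that level with a library left out is not given here, so these counts have no background beside them. The groups did not overlap for 2 members without KO 1 or KO 3 (3.21% and 3.90% of all genes then), and for 3 without WT 5 (4.12%).

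The fold changes were small and leaned one way. Of the 48 log2 fold changes, 37 were above 0 (77.1%), against 50.1% over all genes tested. Their median was 0.08, against 0.00 over all genes, and they ran from -0.35 for Fbl to 0.33 for Nhp2. The lean rested largely on 1 library. Without KO 3, 27 members were above 0 and 21 below, the median was 0.02, and 49.3% of 17792 genes then tested were above 0. The median was 0.05 on log2(TPM + 1) and 0.15 with the mean log2 CPM of macrophage markers as a covariate.

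KO 3 held the highest CPM of all 10 libraries for 34 of the 48 factors (70.8%), against 3184 of the 17495 genes tested (18.2%). On the TPM scale it was the highest library for 38 factors. It was the lowest library for none of the factors, though it was the lowest for 18.8% of the genes tested. Outside the list, KO 3 was the highest library for 38.9% of 18 other polymerase I genes. The share was 47.8% of 46 other small-subunit factors and 38.3% of 47 other large-subunit factors. The median factor stood 1.28 times above its median over the other libraries in KO 3, and 26 factors were more than 1.25 times above it. Noc2l was 1.89, Nop16 1.85, Gar1 1.84, Nolc1 1.80 and Heatr1 1.70 times that median, and these genes were picked after their values were seen. Only Pes1 (0.927), Bop1 (0.948) and Polr1c (0.957) stood below their own median there. At the other end, KO 5 was the lowest library for 14 factors (29.2%, against 15.5% of the genes tested). WT 3 was the lowest for 10 (20.8%, against 8.45%) and WT 2 for 8 (16.7%, against 9.41%).

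**Figure D1:**
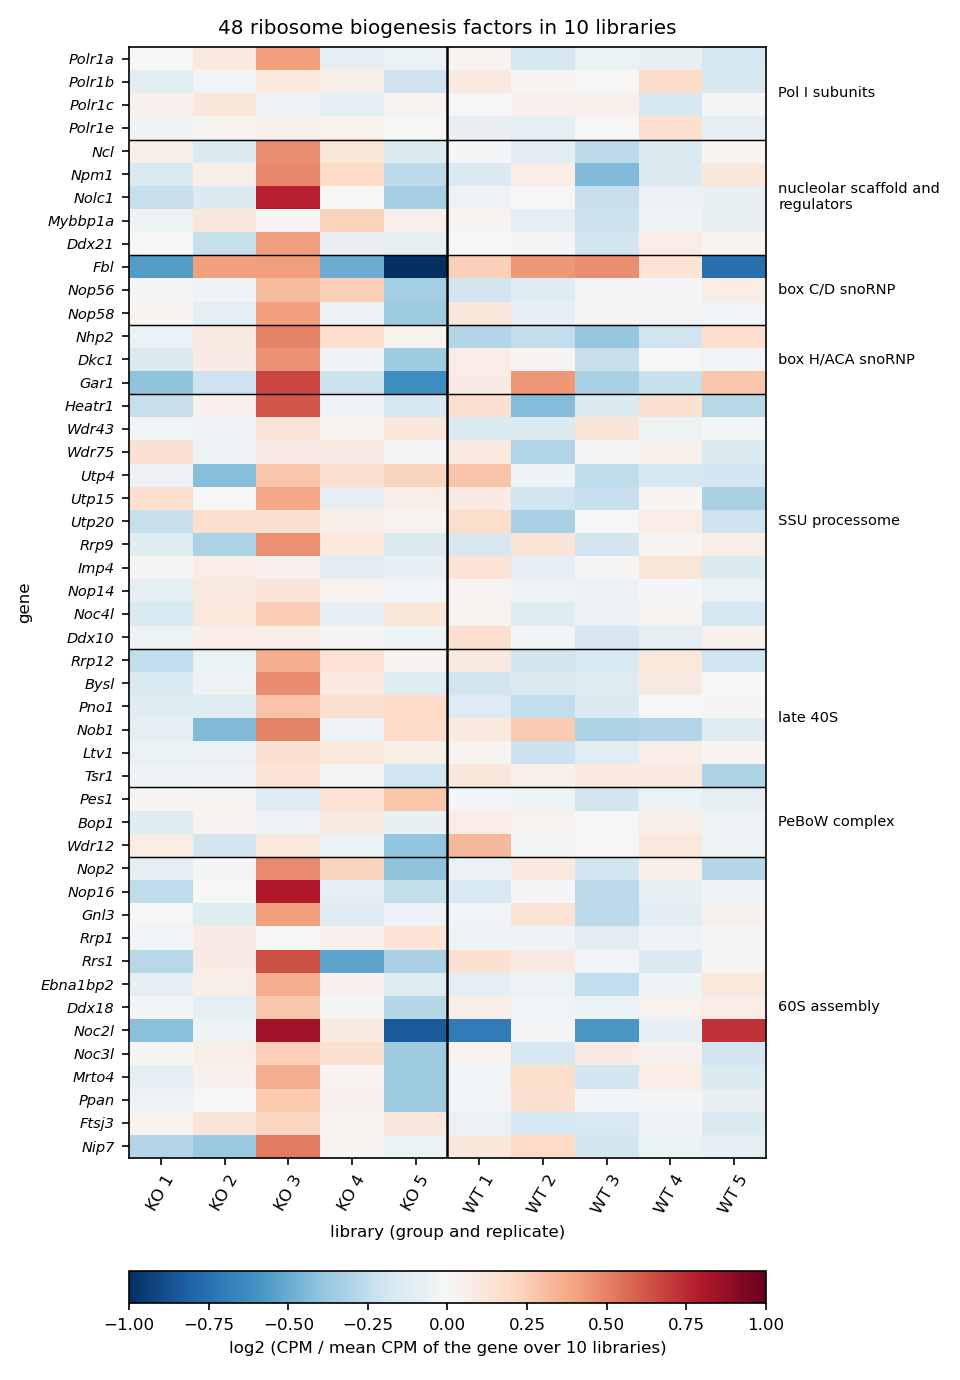
Level of each of the 48 factors (rows, by role) in each library (columns, Egfr KO PSC left of the line), as log2 of the CPM over the gene's mean CPM in 10 libraries. The KO 3 column is the reddest, with pale blue cells for Pes1, Bop1 and Polr1c, and the Fbl and Noc2l rows vary most within both groups. The colours end at the limits of the scale, and Fbl in KO 5 lies beyond them.

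The sum over the list showed the same library. Summed TPM of the 48 factors was 4283, 4595, 6144, 4786 and 3822 in KO 1 to KO 5, against 4548, 4260.5, 4377, 4495.5 and 4487 in WT 1 to WT 5. The means were 4726 ± 872 in Egfr KO PSC and 4434 ± 115 in Egfr WT PSC (SD, n = 5 each). Both the highest and the lowest sum belonged to Egfr KO PSC libraries, so the groups overlapped. Without KO 3 the Egfr KO PSC mean was 4371 ± 421 (n = 4), below that of Egfr WT PSC by less than this SD. The summed CPM gave 5976 ± 786 in Egfr KO PSC and 5532 ± 209 in Egfr WT PSC, and 5648 ± 322 in Egfr KO PSC without KO 3. The factors took up between 0.382% (KO 5) and 0.614% (KO 3) of all TPM in a library.

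**Figure D2:**
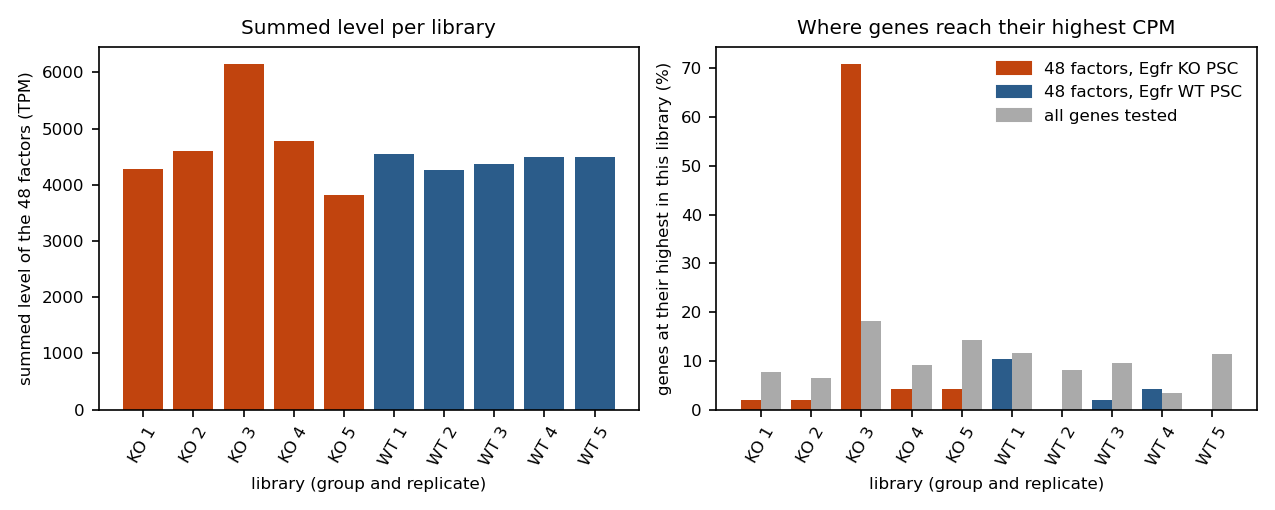
Left, summed TPM of the 48 factors in each library. Right, the percentage of the 48 factors (coloured) and of all 17495 tested genes (grey) whose highest CPM is in that library. KO 3 stands at 6144 TPM and holds the highest value of 70.8% of the factors and 18.2% of all genes.

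KO 3 was at an end of the range in other measures too, over all libraries or only within Egfr KO PSC. Their part in these values was not tested. It had the lowest sequencing total of the 10 libraries, as given above. Summed CPM of 12 epithelial markers lay between 15942 and 27978 in Egfr KO PSC and between 18721 and 20422 in Egfr WT PSC, and KO 3 had the 15942. The sum of 11 endothelial markers lay between 15.3 and 70.3 in Egfr KO PSC and between 33.2 and 53.5 in Egfr WT PSC, and KO 3 had the 70.3. Mitochondrial genes took 3.03% of the reads of KO 3, the highest share in Egfr KO PSC (2.25% to 2.89% in its other libraries), against 1.85% to 4.51% in Egfr WT PSC. Its macrophage marker sum of 338 CPM was also the highest in Egfr KO PSC, against 276 to 470 CPM in Egfr WT PSC.

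The other marker lists show what else the sort held. Summed CPM of 16 fibroblast markers was 433 to 1424 in Egfr KO PSC and 483 to 1189 in Egfr WT PSC. The sum of 15 macrophage markers was 225 to 338 in Egfr KO PSC and 276 to 470 in Egfr WT PSC, and that of 12 acinar markers was 99.3 to 415 and 144 to 432 in the same order. By single genes the macrophage, fibroblast and endothelial lists leaned to lower values in Egfr KO PSC, with no edgeR call. The acinar list did not: of 11 markers tested, 8 had a log2 fold change above 0 and 3 below (median 0.08). Log2 fold changes were below 0 for 11 of 14 macrophage markers tested (median -1.19, 9 at an unadjusted edgeR p under 0.05). They were below 0 for 13 of 16 fibroblast markers (median -0.51, 3 at that level, 1 called by DESeq2) and for 11 of 11 endothelial markers (median -0.28, 0 at that level). Over all tested genes, 4.6% were below 0 at that level. Without KO 3 the medians were -1.28, -0.60 and -0.87 in the same order, and 63.6% of the endothelial markers were highest in KO 3. Red cell markers (6 genes) summed to 0.905 to 3.55 in Egfr KO PSC, below all Egfr WT PSC libraries (6.50 to 42.4). All 4 of them that were tested had a log2 fold change below 0 (median -3.83) and an unadjusted edgeR p under 0.05. DESeq2 called 3 of these 4 genes, and edgeR called 0. Of 12 epithelial markers, 7 had a log2 fold change above 0 and 5 below (median 0.04), with 1 at an unadjusted edgeR p under 0.05, above 0 (3.55% of all genes). Epcam averaged 225 ± 29.8 CPM in Egfr KO PSC and 225 ± 73.2 CPM in Egfr WT PSC. Means were 96.6 ± 27.3 and 199 ± 55.2 CPM for the fibroblast gene Col1a1, and 1.03 ± 0.448 and 2.68 ± 1.45 CPM for Ptprc of the macrophage list. Single genes of the endothelial, acinar and red cell lists are not given here. No gene of these lists was at 0 in every library. The epithelial markers had the highest sums, but CPM takes no account of transcript length and the lists differ in size. The sums therefore do not measure the share of each cell type. In bulk libraries, fewer cells of a type and less RNA per cell cannot be told apart. The part of these other cells in the values of the factors was not tested.

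The factors differed widely in abundance. Mean TPM over the 10 libraries ran from 8.04 for Rrs1 to 672 for Npm1, with a median of 70.1. The 4 most abundant, Npm1, Nop56, Nop58 and Ncl, made up 41.3% of the summed level, and 9 factors exceeded 100 TPM. Near-identical sequence (at least 95% identity over 200 bases) in another gene was found for 11 factors, Bysl, Ddx18, Ddx21, Fbl, Mrto4, Noc2l, Nop56, Npm1, Pes1, Tsr1 and Wdr12. Their levels depend on how shared reads were divided, to an extent that was not tested. The other gene was assigned between 0 and 1 reads per library for Ddx21 (Gm37197), and between 2150 and 4091 for Bysl (Ccnd3). Only the leading transcript of each factor was searched. The highest library was 1.16 times the lowest for Bop1, 1.55 times for the median factor, 3.20 times for Noc2l and 3.94 times for Fbl, in CPM.

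Among the RNA polymerase I subunits, the catalytic largest subunit Polr1a (ENSMUSG00000049553) varied more than Polr1c (ENSMUSG00000067148), a shared subunit that also serves RNA polymerase III. The highest library was 1.49 times the lowest for Polr1a and 1.21 times for Polr1c in CPM, against 1.55 for the median factor. Polr1a had 75.1, 79.9, 99.3, 70.7 and 71.5 CPM in KO 1 to KO 5, against 76.4, 66.5, 71.4, 70.9 and 66.5 CPM in WT 1 to WT 5. KO 3 was its highest library and the groups overlapped, with a log2 fold change of 0.17 (SE 0.11, adjusted p = 0.713) that was 0.09 without KO 3. Polr1c, the most abundant of the 4 at 80.3 TPM, had 67.3, 70.5, 63.6, 61.4 and 66.4 CPM in Egfr KO PSC, against 65.0, 67.2, 67.7, 58.3 and 64.6 CPM in Egfr WT PSC. All its libraries lay within a narrow band, and its log2 fold change was 0.03 (SE 0.08, adjusted p = 0.954). The second-largest subunit Polr1b averaged 62.9 ± 5.53 CPM in Egfr KO PSC and 65.8 ± 5.68 CPM in Egfr WT PSC. Polr1e, a subunit of the initiation-promoting subcomplex, averaged 19.5 ± 0.418 and 19.1 ± 1.49 CPM in the same order (SD, n = 5 each). Polr1a was the only one of the 4 with its highest library in KO 3.

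The scaffold and regulator genes all had log2 fold changes above 0 and none passed the test. Npm1 (ENSMUSG00000057113) encodes nucleophosmin, the nucleolar chaperone, and was the most abundant of all 48. It had 511, 595, 789, 648 and 473 CPM in KO 1 to KO 5, against 514, 595, 417, 517 and 612 CPM in WT 1 to WT 5. KO 3 was highest and WT 3 lowest, with the other libraries mixed between, and the log2 fold change was 0.18 (SE 0.15, adjusted p = 0.785). Ncl, which encodes nucleolin, an RNA-binding protein of rDNA transcription and early processing, followed the same library order at its top. Its CPM was 879.8, 767, 1167, 917 and 765 in Egfr KO PSC, against 839, 783, 706, 762 and 855 in Egfr WT PSC, with a log2 fold change of 0.19 (SE 0.13, adjusted p = 0.726). Without KO 3 these values were 0.08 for Npm1 and 0.08 for Ncl.

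Mybbp1a (ENSMUSG00000040463), a MYB-binding nucleolar protein that represses rRNA synthesis, did not peak in KO 3 on the CPM scale, while its TPM was highest there (113 in KO 3, 105 in WT 5). It had 232, 260.2, 243, 283 and 250.1 CPM in Egfr KO PSC, against 246, 226, 208, 234 and 229 CPM in Egfr WT PSC. Except for KO 1 and KO 3, the Egfr KO PSC libraries lay above all Egfr WT PSC libraries, with a log2 fold change of 0.15 (SE 0.09, adjusted p = 0.690). It was 0.17 without KO 3. Nolc1, a chaperone of snoRNPs in Cajal bodies and nucleoli, was the opposite case, with 119, 127, 240.0, 139.8 and 111 CPM in Egfr KO PSC, against 135, 139, 119, 134 and 133 CPM in Egfr WT PSC. KO 3 alone set it apart: its log2 fold change of 0.16 (SE 0.19, adjusted p = 0.855) turned to -0.08 without that library. The RNA helicase Ddx21 averaged 84.3 ± 15.6 CPM in Egfr KO PSC and 82.1 ± 5.34 CPM in Egfr WT PSC, and its log2 fold change of 0.04 turned to -0.07 without KO 3.

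The box C/D snoRNP carries the 2′-O-methyltransferase fibrillarin (Fbl) on the scaffold proteins Nop56 and Nop58. Fbl (ENSMUSG00000046865) was the most variable factor of the list and had the most negative fold change. It had 32.0, 62.7, 63.0, 33.3 and 16.5 CPM in KO 1 to KO 5, against 55.4, 63.5, 65.0, 51.6 and 27.9 CPM in WT 1 to WT 5. Both groups held low and high libraries, the lowest being KO 5 and WT 5, and the log2 fold change of -0.35 (SE 0.34, adjusted p = 0.820) came with a 95% confidence interval from -1.08 to 0.39. Its partner Nop56 (ENSMUSG00000027405) had 433, 428, 548, 517 and 347 CPM in Egfr KO PSC, against 383, 404, 436, 433 and 464 CPM in Egfr WT PSC. KO 3 was highest and KO 5 lowest, so Egfr KO PSC spanned all of Egfr WT PSC, with a log2 fold change of 0.10 (SE 0.13, adjusted p = 0.860). Nop58 averaged 258 ± 52.2 CPM in Egfr KO PSC and 257 ± 12.9 CPM in Egfr WT PSC, a log2 fold change of 0.01 that was -0.11 without KO 3.

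Fbl did not follow its partners in level either. Mean TPM was 68.1 for Fbl, 441 for Nop56 and 415 for Nop58. Almost all of the Fbl level came from 1 transcript, Fbl-201. A processed pseudogene, Gm5812, matched that transcript over 984 bases at 96.9% identity, and transcripts of Tulp4 matched it over 690 bases at 99.6%. The pseudogene was assigned 60.8 to 197 reads and Tulp4 2299 to 3189 reads per library, so how shared reads were divided makes the Fbl level uncertain. Transcripts without a name in the annotation used here (10765 of 147828) were not assigned to genes, and a Fbl transcript among them would be missing from its sum.

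The box H/ACA snoRNP guides pseudouridylation and also stabilises telomerase RNA, with dyskerin (Dkc1) as its enzyme and Nhp2 and Gar1 as small partners. Nhp2 (ENSMUSG00000001056) had the most positive fold change of the 48. It had 118, 132, 175, 139 and 127 CPM in KO 1 to KO 5, against 101, 105, 94.9, 108 and 139 CPM in WT 1 to WT 5. WT 5 was the exception among the Egfr WT PSC libraries: the other 4 lay below all of Egfr KO PSC. The log2 fold change was 0.33 (SE 0.13, 95% confidence interval 0.04 to 0.62), with an unadjusted edgeR p of 0.0284 and an adjusted p of 0.554, and it was 0.24 without KO 3. Dkc1 averaged 92.1 ± 20.0 CPM in Egfr KO PSC and 88.8 ± 6.85 CPM in Egfr WT PSC, with a log2 fold change of 0.05. The scarce Gar1 had 4.07, 4.67, 8.56, 4.64 and 3.51 CPM in Egfr KO PSC, against 5.69, 7.27, 4.30, 4.62 and 6.51 CPM in Egfr WT PSC. Outside KO 3 the Egfr KO PSC libraries lay at or below the middle of Egfr WT PSC, and the log2 fold change was -0.16 (SE 0.26, adjusted p = 0.898) with KO 3 and -0.42 without it. All 3 of these genes had their highest library in KO 3.

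**Figure D3:**
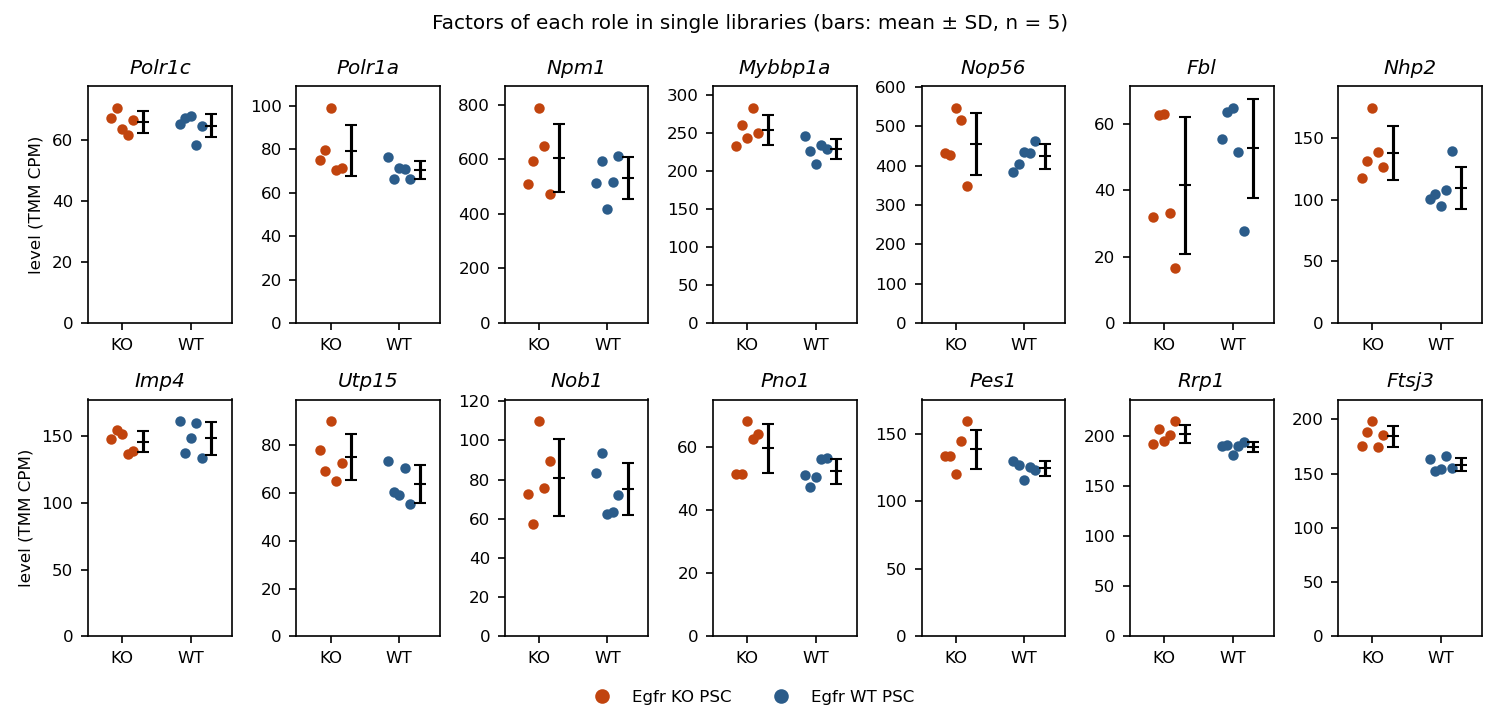
CPM of 14 factors in single libraries, Egfr KO PSC (orange) left of Egfr WT PSC (blue), with mean and SD (n = 5) beside the points. Ftsj3 is the one panel with no overlap between the groups, and Fbl spreads from 16.5 to 65.0 CPM.

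Of the 11 SSU processome factors, 10 had a log2 fold change above 0 (9 without KO 3), with a median of 0.09 (0.06 without KO 3), and 6 were highest in KO 3. Utp15 (ENSMUSG00000041747), a subunit of the UTP-A complex that binds the precursor first, had the lowest p among them. It had 78.1, 69.5, 90.2, 65.0 and 72.8 CPM in KO 1 to KO 5, against 73.6, 60.5, 59.2, 70.5 and 55.4 CPM in WT 1 to WT 5. KO 3 and KO 1 were highest, WT 1 and WT 4 overlapped the rest of Egfr KO PSC, and the log2 fold change was 0.23 (SE 0.12, adjusted p = 0.650). Imp4 (ENSMUSG00000026127), which helps U3 snoRNA pair with the precursor, was the most abundant of these 11 at 102 TPM. Its CPM was 148, 155, 151, 136 and 139 in Egfr KO PSC, against 161, 137, 148, 160.0 and 134 in Egfr WT PSC. Both groups covered the same band, with a log2 fold change of -0.02 (SE 0.09, adjusted p = 0.964).

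Heatr1, the large UTP-A subunit also known to support polymerase I transcription, had 48.6, 59.0, 88.0, 55.9 and 50.9 CPM in Egfr KO PSC, against 64.4, 42.4, 51.9, 63.6 and 47.1 CPM in Egfr WT PSC. The groups interleaved except for KO 3, and its log2 fold change of 0.17 (SE 0.18, adjusted p = 0.834) was 0.00 without it. The remaining UTP-A members averaged 158 ± 8.53 CPM in Egfr KO PSC and 149 ± 11.7 CPM in Egfr WT PSC for Wdr43, 92.9 ± 5.40 and 86.5 ± 9.18 CPM for Wdr75, and 121 ± 22.2 and 112 ± 17.9 CPM for Utp4. The U3 snoRNP protein Rrp9 averaged 61.1 ± 13.5 CPM in Egfr KO PSC and 59.3 ± 5.75 CPM in Egfr WT PSC, and its log2 fold change of 0.04 turned to -0.08 without KO 3. Later processome components were as close. Nop14 averaged 63.4 ± 3.99 and 60.8 ± 1.62 CPM, its partner Noc4l 94.1 ± 10.6 and 87.1 ± 5.38 CPM, the helicase Ddx10 49.5 ± 1.97 and 48.8 ± 4.49 CPM, and Utp20 53.1 ± 5.64 and 49.9 ± 6.96 CPM, each with Egfr KO PSC first (SD, n = 5 each).

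The late 40S factors ride the pre-40S particle from the nucleus to the cytoplasm, and all 6 were highest in KO 3. Nob1 (ENSMUSG00000003848), the endonuclease that makes the final cut at the 3′ end of 18S rRNA, had 72.8, 57.3, 109.9, 75.8 and 89.3 CPM in KO 1 to KO 5, against 83.6, 93.3, 62.7, 63.5 and 71.9 CPM in WT 1 to WT 5. The groups overlapped over most of their range, and its log2 fold change of 0.11 (SE 0.17, adjusted p = 0.891) was -0.02 without KO 3. Pno1 (ENSMUSG00000020116), the partner of Nob1 that binds beside that cut, had 51.3, 51.3, 68.1, 62.4 and 64.0 CPM in Egfr KO PSC, against 50.9, 47.2, 50.5, 55.9 and 56.4 CPM in Egfr WT PSC. KO 3, KO 4 and KO 5 lay above all Egfr WT PSC libraries while KO 1 and KO 2 lay among them, with a log2 fold change of 0.19 (SE 0.11, adjusted p = 0.686). Bysl, a scaffold of the particle, averaged 42.9 ± 8.18 CPM in Egfr KO PSC and 39.0 ± 3.13 CPM in Egfr WT PSC. The means were 36.7 ± 5.76 and 33.8 ± 3.63 CPM for the export factor Rrp12, 43.5 ± 2.97 and 41.2 ± 3.28 CPM for Ltv1, and 66.9 ± 5.63 and 68.7 ± 7.89 CPM for the GTPase-like Tsr1, Egfr KO PSC first. Tsr1 was the one late 40S factor with a log2 fold change below 0 (-0.04).

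The PeBoW complex of Pes1, Bop1 and Wdr12, needed to process the 5.8S and 28S rRNAs of the 60S subunit, was the role with no member highest in KO 3. Pes1 (ENSMUSG00000020430) had 134, 134, 121, 145 and 159.5 CPM in Egfr KO PSC, against 130.1, 127, 116, 126 and 123 CPM in Egfr WT PSC. Apart from KO 3 every Egfr KO PSC library lay above every Egfr WT PSC library, and the log2 fold change was 0.16 (SE 0.09, adjusted p = 0.703) with KO 3 and 0.21 without it (adjusted p = 0.435). Its binding partners did not share this order. Bop1 averaged 66.9 ± 3.89 CPM in Egfr KO PSC and 69.2 ± 2.25 CPM in Egfr WT PSC, a log2 fold change of -0.05 (SE 0.08). Wdr12 averaged 55.7 ± 7.61 CPM in Egfr KO PSC and 62.0 ± 6.93 CPM in Egfr WT PSC, a log2 fold change of -0.16 (SE 0.12, adjusted p = 0.761). Whether the fold changes of the 3 subunits differ from each other was not tested.

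Of the 13 other 60S factors, 12 were highest in KO 3, and 9 had a log2 fold change above 0, against 5 without that library. Ftsj3 (ENSMUSG00000020706, on chromosome 11), the homologue of the yeast 60S methyltransferase Spb1, had the lowest p of the 48. It had 176, 188, 198, 175 and 186 CPM in KO 1 to KO 5, against 164, 152, 154, 166 and 155 CPM in WT 1 to WT 5. Each Egfr KO PSC library lay above each Egfr WT PSC library, although the gap between KO 4 and WT 4 was no larger than the SD of Egfr KO PSC. The means were 185 ± 9.74 CPM in Egfr KO PSC and 158 ± 6.22 CPM in Egfr WT PSC, with a log2 fold change of 0.22 (SE 0.08, 95% confidence interval 0.05 to 0.39), an unadjusted edgeR p of 0.0162 and an adjusted p of 0.501. The fold change was 0.20 without KO 3, and on the TPM scale the groups overlapped.

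Rrp1 (ENSMUSG00000061032), the homologue of a yeast 60S processing factor, was the most abundant of these 13 at 165 TPM. It had 192, 207, 195, 201 and 215 CPM in Egfr KO PSC, against 190.0, 191, 181, 190.1 and 194 CPM in Egfr WT PSC. Its libraries were among the evenest of the list, only KO 1 lay among those of Egfr WT PSC, and the log2 fold change was 0.09 (SE 0.08, adjusted p = 0.774). Nop16, a nucleolar protein known as a MYC target, had 66.9, 79.7, 139, 74.9 and 67.5 CPM in Egfr KO PSC, against 71.8, 79.2, 66.7, 75.9 and 77.3 CPM in Egfr WT PSC. All libraries but KO 3 lay between 66.7 and 79.7 CPM, and its log2 fold change of 0.21 (SE 0.19, adjusted p = 0.804) was -0.03 without that library. Noc2l, a NOC-family transport factor that also binds p53, had 11.6, 15.1, 27.9, 16.6 and 8.72 CPM in Egfr KO PSC, against 9.57, 15.4, 10.4, 14.7 and 25.7 CPM in Egfr WT PSC. High and low libraries occurred in both groups, with KO 3 and WT 5 on top, and the log2 fold change was 0.08 (SE 0.33). Noc2l transcripts share 599 identical bases with the neighbouring Samd11 (64.4 to 263 reads per library), so its count is uncertain.

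The groups overlapped for each of the other 60S factors. The rRNA methyltransferase Nop2 averaged 134 ± 30.9 CPM in Egfr KO PSC and 122 ± 13.7 CPM in Egfr WT PSC. Gnl3, which encodes the GTPase nucleostemin, averaged 113 ± 19.3 and 107 ± 11.3 CPM, and Ebna1bp2 122 ± 17.1 and 112 ± 9.71 CPM, with Egfr KO PSC first in each pair. Noc3l, a NOC-family partner of Noc2l, lay between 32.0 and 48.5 CPM in Egfr KO PSC and between 35.9 and 43.4 CPM in Egfr WT PSC. In these 4 the fold changes lay on the positive side, with adjusted p between 0.806 and 0.905. Mrto4, which precedes the P-stalk protein on the particle, averaged 41.6 ± 7.55 and 40.7 ± 4.33 CPM in that order. Ppan, the peter pan homologue, averaged 89.4 ± 13.3 and 90.3 ± 5.74 CPM, the helicase Ddx18 98.7 ± 14.1 and 101 ± 3.95 CPM, and Nip7 67.0 ± 17.6 and 67.2 ± 7.31 CPM. Rrs1, which in yeast helps to bring the 5S particle into the 60S subunit, was the scarcest member at 8.04 TPM and averaged 9.46 ± 3.30 CPM in Egfr KO PSC and 9.73 ± 0.759 CPM in Egfr WT PSC. Its log2 fold change of -0.04 was -0.26 without KO 3.

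**Figure D4:**
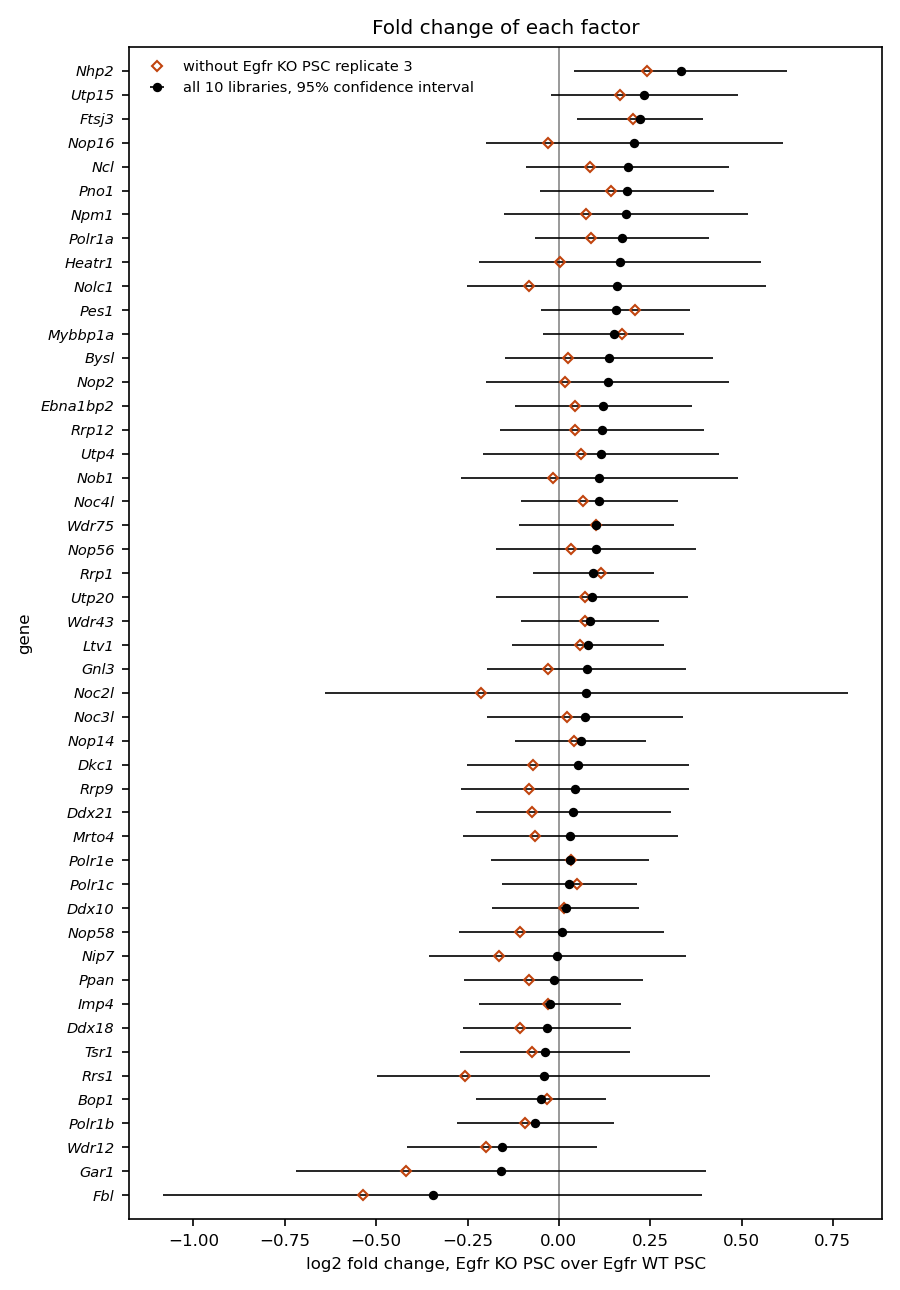
Log2 fold change of each of the 48 factors, Egfr KO PSC over Egfr WT PSC, with 95% confidence intervals (black) and the value without KO 3 (open diamonds). The intervals of Nhp2 and Ftsj3 alone leave out 0 before adjustment, and most diamonds lie left of their black point.

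Part of the level of these genes, counted as TPM, was assigned to annotated forms that do not code for the protein. TPM weights short transcripts more than reads do. The 48 genes had 289 transcripts in the files, of which 120 are annotated as retained intron, 102 as protein coding, 35 as processed transcript and 32 as targets of nonsense-mediated decay. A coding transcript had the highest level in 43 of the factors. In the other 5, Ncl, Polr1a, Imp4, Ebna1bp2 and Gar1, another form led. Coding transcripts held between 9.88% and 11.9% of Ncl TPM, between 11.2% and 16.7% of Polr1a TPM, between 21.0% and 29.9% of Imp4 TPM, and between 25.2% and 32.4% of Ebna1bp2 TPM over the 10 libraries.

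The split was steady over libraries in some genes and not in others. Coding transcripts held between 52.4% and 90.5% of Heatr1 TPM, between 66.5% and 92.2% of Mybbp1a TPM, between 40.3% and 63.5% of Gar1 TPM and between 34.9% and 51.2% of Wdr43 TPM. In Ncl the range was narrow. The retained-intron form Ncl-202, 3072 bases long, held 85.6% ± 1.12 of Ncl TPM in Egfr KO PSC and 84.7% ± 1.52 in Egfr WT PSC (SD, n = 5 each). Coding transcripts held 10.6% ± 0.595 in Egfr KO PSC and 11.1% ± 0.720 in Egfr WT PSC, a difference within the spread of the libraries. Coding Ncl TPM was 38.3, 36.2, 60.9, 38.6 and 32.5 in KO 1 to KO 5, against 42.4, 32.4, 38.8, 37.5 and 38.6 in WT 1 to WT 5. KO 3 was again the highest library on this scale. In Polr1a, a form annotated for decay (Polr1a-207) held 40.2% ± 5.21 of TPM in Egfr KO PSC and 41.4% ± 1.38 in Egfr WT PSC. The split among transcripts is an estimate by the quantification.

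**Figure D5:**
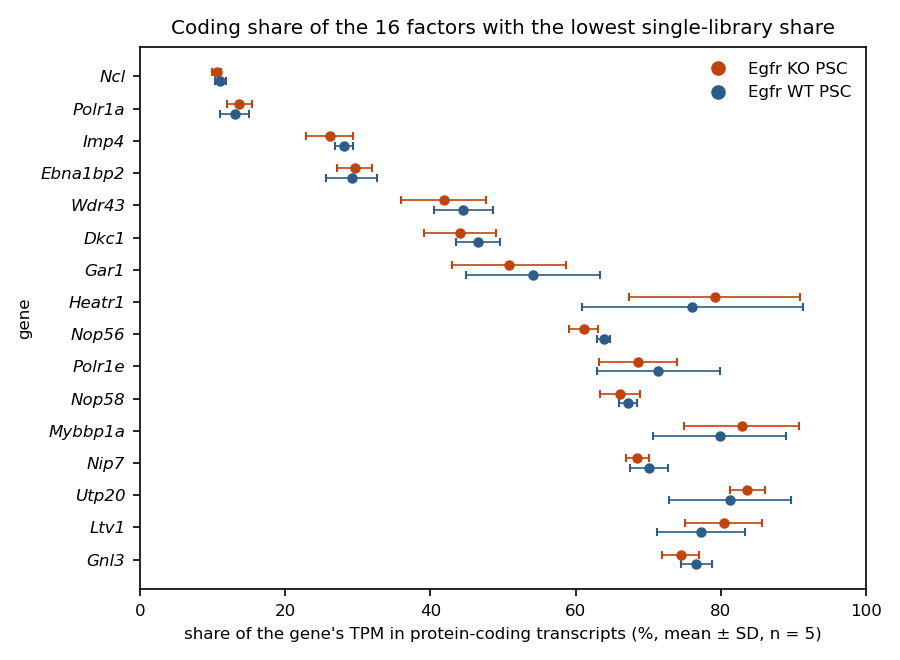
Share of each gene's TPM held by protein-coding transcripts (mean ± SD, n = 5; Egfr KO PSC above Egfr WT PSC), for the 16 factors with the lowest share in any library. Ncl and Polr1a lie lowest, at 10.6% and 13.7% in Egfr KO PSC and 11.1% and 13.0% in Egfr WT PSC.

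Other genes of the pathway were examined as lists, and none of their genes passed the edgeR test. Of 18 other genes of the polymerase I machinery, 11 had a log2 fold change above 0 and 7 below (median 0.01, 0.03 without KO 3). Taf1d, a subunit of the polymerase I selectivity factor, had the lowest p among them and averaged 108 ± 16.5 CPM in Egfr KO PSC and 90.6 ± 10.9 CPM in Egfr WT PSC (log2 fold change 0.25, SE 0.12, adjusted p = 0.647). The most abundant, the shared subunit Polr2k, averaged 100.0 ± 11.9 and 92.0 ± 10.9 CPM, Egfr KO PSC first. Of 46 other small-subunit factors, 31 were above 0 and 15 below (median 0.04, -0.01 without KO 3), and 5 had an unadjusted edgeR p under 0.05, all above 0: Riok2, Bms1, Ddx47, Wdr46 and Tbl3. Over all genes 3.55% were above 0 at that level, and 4.6% below.

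Riok2, an atypical kinase of late 40S maturation, had 80.5, 82.6, 85.5, 90.0 and 86.3 CPM in KO 1 to KO 5, against 69.8, 61.0, 70.4, 66.3 and 72.8 CPM in WT 1 to WT 5. All Egfr KO PSC libraries lay above all Egfr WT PSC libraries. In CPM the highest was KO 4, and in TPM KO 3 (59.0, against 57.7 in KO 4). Its log2 fold change was 0.32 (SE 0.08) and 0.33 without KO 3. DESeq2 called Riok2 (adjusted p = 0.0198), while edgeR did not (adjusted p = 0.409). Its fellow Fcf1, the endonuclease-like factor that was most abundant in this list, averaged 124 ± 9.80 CPM in Egfr KO PSC and 119 ± 17.9 CPM in Egfr WT PSC (log2 fold change 0.05).

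Of 47 other large-subunit factors, 32 were above 0 and 15 below (median 0.06, 0.01 without KO 3). Rpp25, a subunit of RNase P and RNase MRP, had the lowest p of the list (log2 fold change -1.55, SE 0.59, adjusted p = 0.515), and no other gene of the list had an unadjusted edgeR p as low as 0.05. It was scarce, at 0.669 ± 0.482 CPM in Egfr KO PSC and 1.98 ± 1.34 CPM in Egfr WT PSC. Eif6, which keeps fresh 60S subunits from joining 40S, averaged 344 ± 62.8 CPM in Egfr KO PSC and 324 ± 27.1 CPM in Egfr WT PSC.

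Ribosomal proteins are the parts that these factors assemble. Of 79 cytosolic ribosomal protein genes, 74 had a log2 fold change above 0 and 5 below (median 0.13). Without KO 3, 61 of the 79 were above 0 (median 0.07). With all libraries, 65.8% were highest in KO 3, and 4 had an unadjusted edgeR p under 0.05, all above 0. At that level 3.55% of all tested genes were above 0. Summed CPM of these genes lay between 33934 and 42181 in Egfr KO PSC and between 27341 and 39524 in Egfr WT PSC, so the groups overlapped. Rpl27 had 256, 259.9, 356, 257 and 313 CPM in KO 1 to KO 5, against 195, 242, 179, 214 and 239 CPM in WT 1 to WT 5. Its groups did not overlap, and the log2 fold change was 0.43 (SE 0.13, adjusted p = 0.440). The most abundant of them, Rpl32, averaged 1451 ± 179 CPM in Egfr KO PSC and 1160.2 ± 272 CPM in Egfr WT PSC (log2 fold change 0.32, SE 0.16, adjusted p = 0.646). Ribosomal protein genes have many processed copies, so their single values are uncertain.

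Myc itself did not follow the library order of the factors. It had 622, 393, 426, 573 and 488 CPM in KO 1 to KO 5, against 374, 436, 344, 334 and 404 CPM in WT 1 to WT 5. KO 1 and KO 4 were highest, and KO 3 lay below WT 2 in CPM. The log2 fold change was 0.40 (SE 0.14), with an unadjusted edgeR p of 0.0133 and an adjusted p of 0.495, and it was 0.46 without KO 3. Of 13 genes of the MYC network, 6 were above 0 and 7 below, and 15.4% were highest in KO 3. Among the factors matched to a promoter, 5 of the 10 with CACGTG were highest in KO 3, against 26 of the 33 without it. A match is not a bound site, and the part of MYC in the values of the factors was not tested.

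Targets of p53 were divided. Whether p53 works in these organoids was not tested, so the list is not a readout of p53 activity. Of 23, 13 had a log2 fold change above 0 and 10 below (median 0.06), and 17.4% were highest in KO 3. Rrm2b, a ribonucleotide reductase subunit, had the lowest p and averaged 52.3 ± 9.65 CPM in Egfr KO PSC and 38.2 ± 4.24 CPM in Egfr WT PSC (log2 fold change 0.45, SE 0.14, adjusted p = 0.440). Pmaip1, which encodes the death factor NOXA and was the most abundant of these targets, averaged 657 ± 406 CPM in Egfr KO PSC and 492 ± 94.9 CPM in Egfr WT PSC, with 1366 CPM in KO 5 alone.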

How the data were processed

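RNA was measured in 10 libraries of flow-sorted tumour epithelium, 5 per group, prepared with a low-input kit and more PCR cycles where less RNA was at hand, per the labels' protocols. Per the submitters' processing notes, the authors quantified transcripts with Salmon 1.9.0 on GRCm39 (mm39). Which annotation release served is not stated there. The deposited expected counts (estimated counts per transcript) are not normalised, and the deposited TPM values are scaled to the same sum in each library.

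Transcripts were matched to genes by identifier without version in GENCODE M21, which named 137063 of 147828 (92.7%) and 98.1% to 98.7% of the reads. Estimated counts were summed per gene, rounded and tested with edgeR 4.0.16 (TMM, filterByExpr with a minimum count of 10, quasi-likelihood) in R 4.3.3. DESeq2 1.42.0, limma 3.58.1, other scalings, covariates and leaving out each library were alternatives. An alternative restricted to protein-coding transcripts was added after seeing the data. The test was tried on simulated counts. Near-identical copies were sought by alignment of the leading transcripts (at least 95% identity over 200 bases), and 11 members had one.

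The members and lists were chosen with earlier results of these data known. Library values are given for the most abundant factor and the factor of lowest p in each role, and for the 4 of largest absolute fold change. From each further pathway list the gene of lowest p and the most abundant gene are named, with Myc. Ncl, Nolc1, Gar1, Heatr1, Nop16, Noc2l and all members given by means were added after their values were seen. List genes and cell type markers are mostly given by means or ranges. The replicate numbers only name libraries. Intervals and floors cover the spread between these libraries and counting error, and PCR duplicates cannot be told apart.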

Additional observations from a re-analysis of the deposited data

Results flagged for a closer look

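Single libraries stood far from the rest of their group (Dixon's ratio above 0.71 for 5 values) in 7 of the 96 groups examined for the factors (7.29%), against 8.02% over all tested genes. Chance would flag about 1 in 20 groups if values were normally distributed, which was not tested for CPM. The background here is therefore the 8.02% over all tested genes. In 5 of the 7 the library was KO 3, the highest of Egfr KO PSC. Nolc1 had 240.0 CPM there, the other 4 libraries 111 to 139.8. Nop16 had 139, the others 66.9 to 79.7. Heatr1 had 88.0, the others 48.6 to 59.0. Gnl3 had 147, the others 101 to 110.2. Gar1 had 8.56, the others 3.51 to 4.67.

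In Egfr WT PSC, Ppan was high in WT 2 (100.3 CPM, the others 85.5 to 88.8) and Tsr1 was low in WT 5 (54.7 CPM, the others 70.1 to 73.3). Outside the list, Rpl32 was high in KO 3 (1759.9 CPM, the others 1299.8 to 1418). Eif6 (453 CPM, the others 292 to 332) and Pmaip1 (1366 CPM, the others 373 to 576) were high in KO 5.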

How the results depend on the processing

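No paired analysis was done because the labels state no pairing between Egfr KO PSC and Egfr WT PSC libraries. No alternative called any factor, and none of 1056 alternative values brought a factor past the threshold. Of these, 73 reversed a direction, in 23 factors, and 25 factors never reversed. The number at an unadjusted p under 0.05 was 2 in the main test, 0 with the macrophage marker score as a covariate, and 1 to 3 with 1 library left out. The share of all genes at that level is given for the main test only (8.15%). The number without overlap between groups was 1 in the main setting, 0 on TPM, and 1 to 3 with 1 library left out. The share of all genes without overlap was 1.52%, 1.27% and 1.89% to 4.12% in the same order. Leaving out 1 library gave a median log2 fold change of the factors between 0.02 and 0.11, a count above 0 between 27 and 42, and a log2 ratio of the summed level between 0.03 and 0.15. The cause of the reversals below was not tested. With the macrophage marker score as a covariate, reversed log2 fold changes were 0.25 for Fbl, 0.19 for Gar1, -0.025 for Wdr75, -0.012 for Utp20, -0.028 for Ddx10, -0.020 for Ltv1, 0.055 for Tsr1, 0.24 for Rrs1, 0.020 for Ddx18, 0.16 for Ppan, 0.18 for Nip7, -0.046 for Eif6, -0.023 for Fcf1 and -0.044 for Pmaip1. With the fibroblast marker score they were -0.0023 for Polr1c, 0.11 for Gar1, -0.022 for Utp20, 0.059 for Rrs1, 0.066 for Ddx18, 0.0046 for Ppan and 0.086 for Nip7. With limma on log2(TPM + 1) they were -0.032 for Nop58, 0.026 for Imp4, -0.0059 for Ddx10, -0.015 for Mrto4 and 0.0022 for Nip7, and with a pseudocount of 0.1 they were -0.032, 0.026, -0.0060, -0.016 and 0.0018 for the same genes in that order. A factor for the number in the file names gave -0.0069 for Ddx21, -0.0060 for Nop58 and -0.0024 for Mrto4. Length-scaled counts gave 0.058 for Imp4 and 0.065 for Nip7, and upper-quartile scaling gave 0.0066 for Ppan and 0.022 for Nip7. Nip7 was also reversed with DESeq2 (0.0044), with DESeq2 size factors (0.0044) and with protein-coding transcripts only (0.0069), and Nop58 with limma voom (-0.013).

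Leaving out 1 library gave both signs for these genes, with ranges of -0.019 to 0.067 for Ddx10, -0.11 to 0.034 for Ddx18, -0.072 to 0.10 for Ddx21, -0.070 to 0.14 for Dkc1, -0.029 to 0.15 for Eif6, -0.0071 to 0.13 for Fcf1, -0.029 to 0.13 for Gnl3, -0.059 to 0.0083 for Imp4, -0.064 to 0.12 for Mrto4, -0.16 to 0.081 for Nip7, -0.017 to 0.22 for Nob1, -0.21 to 0.35 for Noc2l, -0.081 to 0.25 for Nolc1, -0.029 to 0.29 for Nop16, -0.11 to 0.092 for Nop58, -0.034 to 0.57 for Pmaip1, -0.0075 to 0.053 for Polr1c, -0.081 to 0.066 for Ppan, -0.082 to 0.12 for Rrp9, -0.26 to 0.067 for Rrs1 and -0.11 to 0.0081 for Tsr1.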

Other observations

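Ftsj3 and Nhp2 kept their direction under each alternative tried. The log2 fold change of Ftsj3 lay between 0.20 and 0.25 (adjusted p from 0.127 to 0.998) and that of Nhp2 between 0.24 and 0.53 (0.267 to 0.998). Outside the list, Myc lay between 0.32 and 0.51 (0.230 to 0.998). None passed the threshold.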
